A study of Mus musculus with 18 samples.

Results

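Mt1, Mt2, Mtf1 and Slc30a1 are 4 genes through which cells buffer and export zinc, out of 44349 genes in the deposited table. They were chosen by name, with their levels in these libraries already known, so their values are given here as a description. They went through the same fit as all other genes, but no p-value is given for them and nothing is read from whether they were called. Metallothioneins, the products of Mt1 and Mt2, are small cysteine-rich proteins that bind zinc and copper in the cytoplasm, and their genes lie side by side on mouse chromosome 8. Mtf1 encodes the zinc-sensing transcription factor that binds metal response elements, short DNA motifs in the promoters of its targets. Slc30a1 encodes ZnT1, which exports zinc across the plasma membrane and is itself a target of that factor. Metallothionein genes are known to respond to zinc, copper and cadmium and also to glucocorticoids.

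RNA was taken from mouse bone marrow cells sorted as long-term repopulating haematopoietic stem cells (LT-HSC), that is, lineage-negative, Sca-1+, c-Kit+, CD34-, Flk2- cells with low CD49b. DERARE is a retinoic acid response element of the Hoxb cluster, and the study compared cells with and without it. The 18 libraries fall into 6 groups of 3. WT is wild type, and Wnt5a carries the genotype entry Wnt5a. KO Ctrl is the knockout control, and KO Wnt5a is entered as a Wnt5a rescue of the knockout. WT Reserve and KO Reserve hold reserve cells of the wild type and of the knockout, although the genotype entry of KO Reserve also contains the words wild type. The labels used here give no age, no dose or duration of Wnt5a, no meaning of reserve beyond the word, and no statement that replicates are separate animals. The p-values below therefore measure only the spread between these libraries, which may be technical. The column names of the 6 reserve libraries carry the letters fl and those of the other 12 do not, so the reserve label and whatever that mark stands for cannot be told apart.

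Levels are given in FPKM, read fragments per kilobase of transcript normalised to library depth. From the lowest values in the table, 1 fragment on a transcript of 1 kb was worth 0.0264 to 0.0534 FPKM, and replicates of a group correlated at 0.932 to 0.968 across genes. The 9 LT-HSC markers summed to 398 to 487 FPKM in the 12 libraries without the reserve label, to 252 to 362 (WT Reserve) and to 78.1 to 83.0 (KO Reserve). The 8 granulocyte markers summed to 5.07 to 99.97 FPKM in the 12 libraries, against 4590 to 10500 (WT Reserve) and 2447 to 3664 (KO Reserve), with all 8 at 1 FPKM or more in both reserve groups. The 8 erythroid markers summed to 26.7 to 44.2 FPKM in the 12 libraries, 257 to 1405 (WT Reserve) and 535 to 1185 (KO Reserve), so the reserve groups overlapped on this list. The 5 B lymphoid markers summed to 19.9 to 44.8, 966 to 1050 and 721 to 879 FPKM, in the same order. The 5 megakaryocyte markers ran the other way, from 7212 to 30550 FPKM without the reserve label to 64.4 to 160 with it. In such bulk samples, fewer cells of a type and less RNA per cell cannot be told apart.

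The promoters are shown first because the known link between the 4 genes is the metal response element, whose core was searched on both strands as TGCACNC or TGCGCNC. The windows come from RefSeq on GRCm38.p6 and hold 250 bases before and 50 after the annotated start, and all 4 genes had an entry. Capitals mark matches to the core, which appears as its reverse complement where it lies on the minus strand. Mt1 had 3 matches and Mt2 had 4. The 250 bases upstream of each RefSeq start, on the plus strand, were as follows.
Mt1, chr8:94178839-94179088: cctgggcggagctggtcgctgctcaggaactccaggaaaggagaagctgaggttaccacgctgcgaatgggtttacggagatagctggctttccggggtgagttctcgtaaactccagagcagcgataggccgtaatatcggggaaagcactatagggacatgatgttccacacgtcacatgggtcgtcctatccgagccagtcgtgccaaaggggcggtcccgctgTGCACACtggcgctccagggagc
Mt2, chr8:94172368-94172617: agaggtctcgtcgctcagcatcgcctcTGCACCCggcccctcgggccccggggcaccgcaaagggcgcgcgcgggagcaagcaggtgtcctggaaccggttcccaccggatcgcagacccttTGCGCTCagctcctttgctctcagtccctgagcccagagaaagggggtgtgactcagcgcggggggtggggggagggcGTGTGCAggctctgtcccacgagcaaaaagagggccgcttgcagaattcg

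Matches also lay just after the RefSeq start. Mt1 had TGCACTC at positions 3 to 9 and TGCGCTC at 21 to 27, counted from 1 at the first base after the 250 upstream. Mt2 had 1 match at 5 to 11, which lies before the start of the GENCODE gene. Slc30a1 had 1 at 31 to 37 beside another, GAGTGCA, at -43 to -37. The stretches of 30 bases around these matches, again on the plus strand, were as follows.
Mt1, chr8:94179089-94179118: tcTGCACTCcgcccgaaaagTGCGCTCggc
Mt2, chr8:94172611-94172640: gaattcgggtcGTGCGCAggcccaggggcg
Slc30a1, chr1:191906800-191906829: gcctccgggccGAGCGCAgtcgccgcggac

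Mtf1 itself had 0 matches in its window. Of 32851 promoter windows of the same length, 25.7% held at least 1 match, 7.11% at least 2, 1.97% at least 3 and 0.517% at least 4. A match is a description of the letters and not a measured binding site. The RefSeq and GENCODE starts differ: that of RefSeq lies a few bases inside the GENCODE gene for Mt1 and Slc30a1 and before it for Mt2, and for Mtf1 the whole window searched lies inside the GENCODE gene.

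Mt1 (ENSMUSG00000031765, chr8:94179082-94180327, plus strand) was abundant in every library. It was at 199.5, 200.4 and 204 FPKM in WT and at 216, 192 and 280.2 FPKM in Wnt5a. The KO Ctrl libraries had 180.3, 174 and 179 FPKM, and the KO Wnt5a libraries had 123, 136 and 126 FPKM. The highest of the 12 libraries without the reserve label was thus Wnt5a replicate 3, and the lowest were the KO Wnt5a libraries.

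In the reserve groups Mt1 was higher than in any of the 12 other libraries. WT Reserve had 576, 633 and 604 FPKM, and KO Reserve had 1355, 1551 and 1781 FPKM. By group mean the order was KO Wnt5a (129 ± 6.91 FPKM, SD, n = 3), KO Ctrl (178 ± 3.004), WT (201.5 ± 2.60), Wnt5a (229.5 ± 45.5), WT Reserve (604 ± 28.4) and KO Reserve (1562 ± 213). The libraries of WT and Wnt5a overlapped, and no other neighbours in this order did. In KO Reserve, Mt1 ranked 102 of 14285 tested genes by mean FPKM, against 842 in WT.

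Mt2 (ENSMUSG00000031762, chr8:94172664-94173568, plus strand) was near the detection limit in all 12 libraries without the reserve label and abundant in the other 6. It was listed at 0.272, 0 and 0.306 FPKM in WT, and at 0.315, 0.24 and 1.44 FPKM in Wnt5a. KO Ctrl had 0, 0.333 and 0 FPKM, and KO Wnt5a had 0, 0.072 and 0.767 FPKM. In these 12 libraries, 3 fragments on Mt2 are worth 0.155 to 0.287 FPKM. On that scale 4 libraries were at 0, 1 was above 0 but at no more than 3 fragments, and 7 were above 3 fragments.

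With the reserve label, Mt2 reached 136, 147 and 159 FPKM (WT Reserve) and 360.3, 427 and 485 FPKM (KO Reserve). Every KO Reserve library was above every WT Reserve library, and both groups were far above the other 12. The means were 147 ± 11.2 FPKM for WT Reserve and 424 ± 62.6 for KO Reserve (SD, n = 3 each). No ratio of means is given against the groups without the label, since part of their libraries were at 0, and log2 differences against them depend on the pseudocount.

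The 2 metallothionein genes therefore stood in different proportions in the 2 sets of libraries. Mt2 amounted to 23.2% to 27.6% of the Mt1 level, per length, in the 6 reserve libraries and to at most 0.608% in the 12 others. Within the reserve set it was 23.6%, 23.2% and 26.3% (WT Reserve) and 26.6%, 27.6% and 27.2% (KO Reserve), so the knockout libraries lay above the wild type ones. The longest run shared by a transcript of each gene was 20 bases. Neither gene shared a stretch of 50 bases with any other gene of the annotation.

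**Figure D1:**
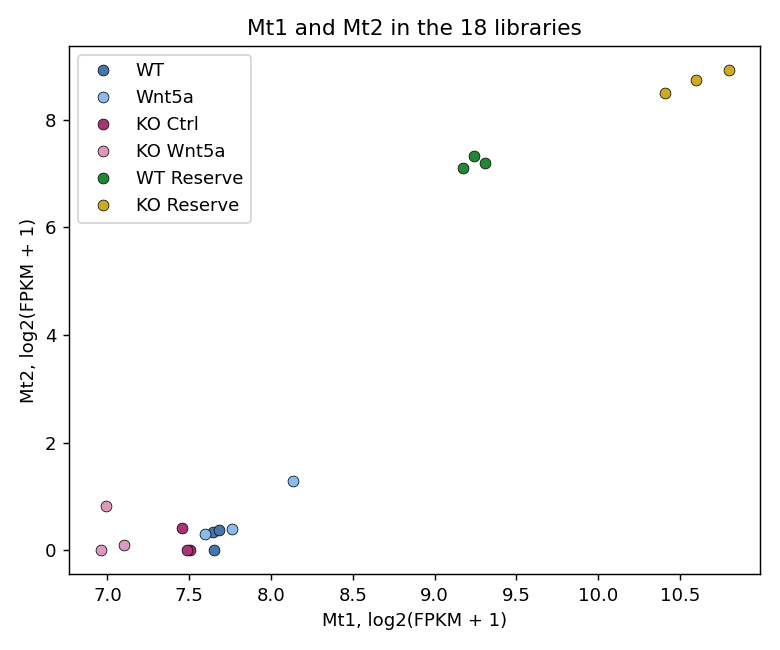
Each point is 1 of the 18 libraries, with Mt1 on the x axis and Mt2 on the y axis, both as log2(FPKM + 1), coloured by group. The 12 libraries without the reserve label lie at Mt2 levels of 0 to 1.44 FPKM while Mt1 runs from 123 to 280.2 FPKM, and both genes are higher in WT Reserve and highest in KO Reserve.

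The other metallothionein genes of the cluster were not raised in the reserve groups. Mt3, which encodes a metallothionein best known from brain and starts 26.5 kb before Mt1, was at most 1.14 FPKM in any library and at 0 in all 3 KO Reserve libraries. Mt4, the epithelial member that starts 41.9 kb before Mt1, was at 0 in all 18. Of the 6 non-metallothionein genes listed within about 210 kb, 5 passed the expression filter. From WT to WT Reserve, 2 of them were called higher and 2 lower by limma, where 58.7% of all genes were called in either direction. The 2 higher calls, Bbs2 and Nudt21, were lost without WT replicate 1 (adjusted p = 0.202 and 0.1005 by limma). Nudt21, which encodes a subunit of the complex that sets polyadenylation sites, was at 45.2 FPKM in WT, 52.5 in WT Reserve and 65.3 in KO Reserve. It was also called higher in KO Reserve than in KO Ctrl (log2 difference 0.56, SE 0.08, adjusted p = 1.92e-05 by limma) and than in WT Reserve (0.31, SE 0.08, adjusted p = 0.0078 by limma), the latter not in a fit of the 6 reserve libraries alone (adjusted p = 0.0856). Herpud1, a gene of the unfolded protein response, fell from 113 to 70.8 FPKM (-0.66, SE 0.14, adjusted p = 0.000757 by limma with Benjamini-Hochberg adjustment).

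**Figure D2:**
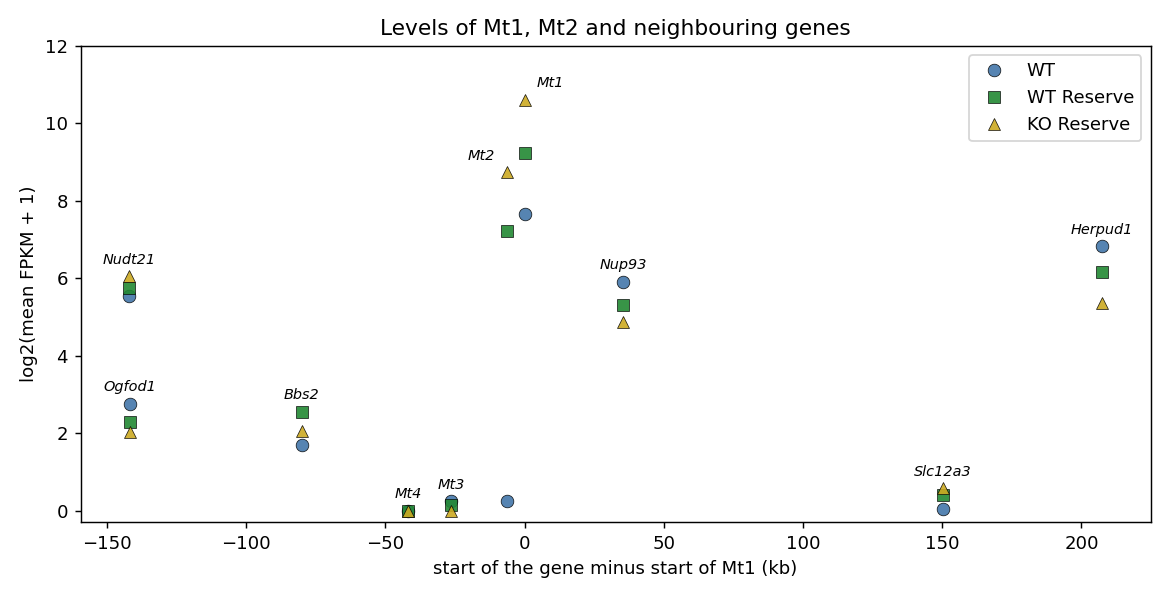
The x axis is the distance of each gene's start from that of Mt1 in kb and the y axis is log2 of the group mean FPKM plus 1, for WT (circles), WT Reserve (squares) and KO Reserve (triangles). Mt2, 6.42 kb before Mt1, moves from 0.193 FPKM in WT to 147 and 424 in the reserve groups, while Mt3 and Mt4 stay below 1 FPKM and Nup93 and Herpud1 are lower in the reserve groups than in WT.

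Mtf1 (ENSMUSG00000028890, chr4:124802104-124849800, plus strand), the zinc sensor, was expressed at similar levels in the 4 groups without the reserve label. It was at 21.1, 22.9 and 19.8 FPKM in WT and at 22.6, 20.3 and 17.7 FPKM in Wnt5a. KO Ctrl had 14.5, 20.9 and 19.4 FPKM, and KO Wnt5a had 20.1, 20.8 and 15.0 FPKM. These 4 groups overlapped one another.

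The reserve groups were above all 12 of these libraries, at 31.0, 28.0 and 30.2 FPKM (WT Reserve) and 34.2, 28.9 and 37.4 FPKM (KO Reserve). Their means, 29.7 ± 1.57 and 33.5 ± 4.28 FPKM (SD, n = 3 each), did not separate, since the lowest KO Reserve library lay inside the WT Reserve range. The 3' end of Mtf1 overlaps 1110065P20Rik on the opposite strand, which was at 14.35 to 27.5 FPKM, and the libraries keep no strand, so reads in the shared stretch could belong to either gene.

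Slc30a1 (ENSMUSG00000037434, chr1:191906767-191913247, plus strand), the zinc exporter, was low everywhere. WT had 0.48, 0.495 and 0.461 FPKM, and Wnt5a had 0.466, 0.465 and 1.44 FPKM. KO Ctrl had 0.82, 0.441 and 0.795 FPKM, and KO Wnt5a had 0.6, 0.489 and 1.14 FPKM. The third replicates of Wnt5a and of KO Wnt5a stood well above the other libraries of their groups.

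In the reserve groups Slc30a1 was at 1.13, 1.12 and 0.881 FPKM (WT Reserve) and 1.37, 2.17 and 1.52 FPKM (KO Reserve). These 2 groups did not overlap each other or their counterparts without the label, but Wnt5a replicate 3 lay inside the KO Reserve range and KO Wnt5a replicate 3 just above that of WT Reserve. Slc30a1 and Mt2 each reached 1 FPKM in 7 of the 18 libraries, of which 5 and 6 were reserve libraries. Both genes therefore entered the tested set mainly through the groups where they were high.

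**Figure D3:**
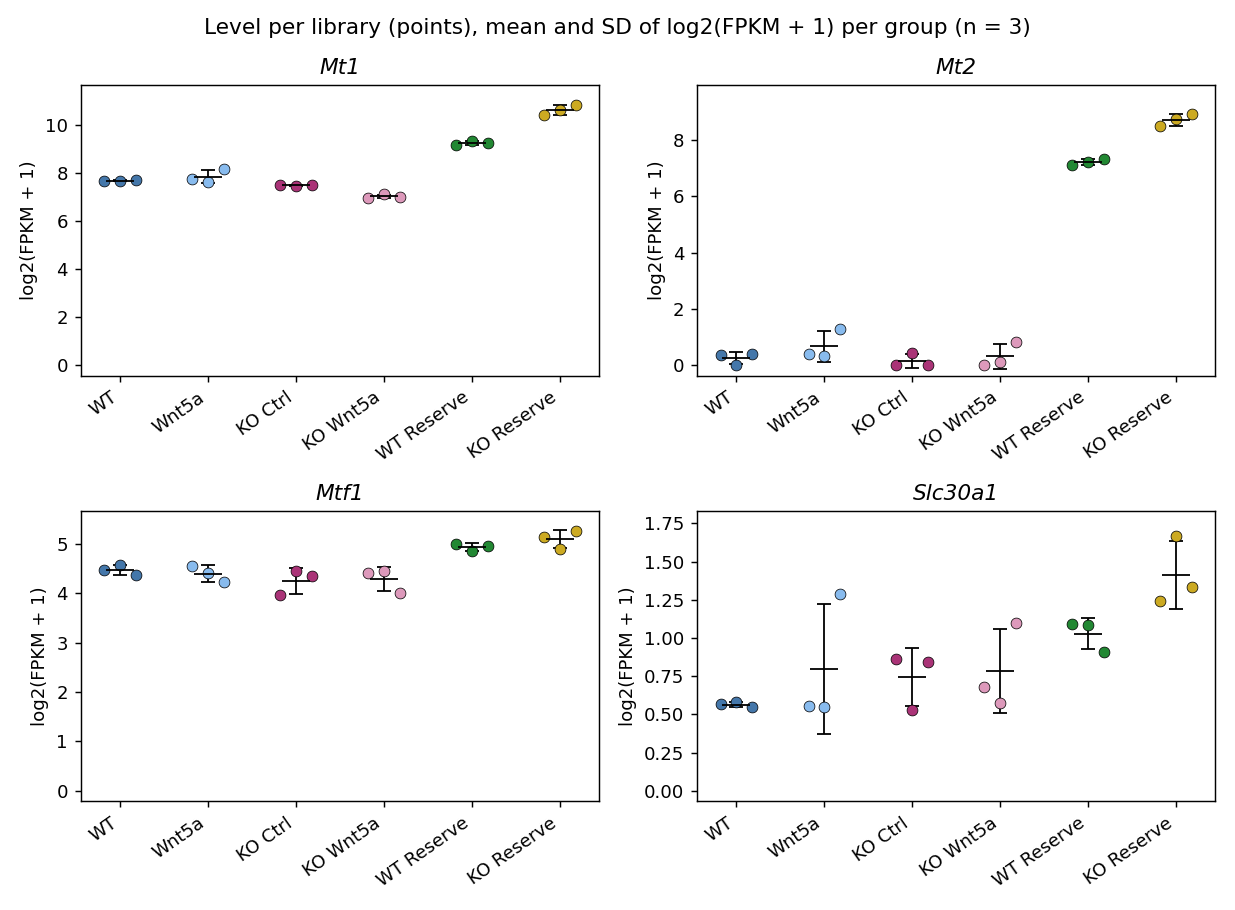
Each panel shows 1 gene, with the 6 groups on the x axis and log2(FPKM + 1) on the y axis. Points are libraries, and the bar and whiskers are the mean and SD of the log2 values over 3 libraries. Mt1 and Mt2 are highest in KO Reserve and next in WT Reserve, Mtf1 is raised in both reserve groups without separation between them, and Slc30a1 has single high libraries in Wnt5a and KO Wnt5a.

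The knockout without the reserve label, KO Ctrl against WT, asked what loss of DERARE does in the baseline cells. Mt1 was lower in all 3 knockout libraries than in any WT library, by a log2 difference of -0.18 (SE 0.11). The differences were -0.11 (SE 0.25) for Mt2, -0.22 (SE 0.15) for Mtf1 and 0.18 (SE 0.20) for Slc30a1, and for these genes the groups overlapped. Of the 4 genes 0 were called, where 2.65% of the 14285 tested genes were called in either direction. Mt1 alone had groups that did not overlap, as had 27.3% of all genes. By limma, 0 of 29 tested genes of the other metal-handling lists were called and 5 had an unadjusted p below 0.05, as had 2517 of all 14285 genes.

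Wnt5a against WT and KO Wnt5a against KO Ctrl asked what Wnt5a does in each genotype. In wild type, the log2 differences of Mt1, Mt2, Mtf1 and Slc30a1 were 0.17, 0.42, -0.07 and 0.23, with SE of 0.11, 0.25, 0.15 and 0.20. All 4 genes overlapped between the groups, and 0 were called, where 0.0490% of all genes were called and 21.5% did not overlap. Of these, Mt1, Mt2 and Slc30a1 were each highest in Wnt5a replicate 3. Without that library the differences of Mt1 and Slc30a1 were 0.02 and -0.01.

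In the knockout, Mt1 was lower with Wnt5a in every library, at 129 against 178 FPKM, a log2 difference of -0.46 (SE 0.11). Of the 4 genes 0 were called, where 1.02% of all genes were called, and Mt1 alone did not overlap, where 16.9% did not. Mt2 (0.17, SE 0.25), Mtf1 (0.03, SE 0.15) and Slc30a1 (0.04, SE 0.20) overlapped between the groups, and the small difference of Mtf1 changed sign under both rescaled fits, to -0.01. The Wnt5a difference in the knockout minus that in wild type was -0.63 (SE 0.16) for Mt1, and 0 of the 4 genes were called for it against 0.0700% of all genes. Of the 29 other metal-handling genes, Srxn1, which encodes the antioxidant enzyme sulfiredoxin, fell in KO Wnt5a from 118 to 49.4 FPKM (log2 difference -1.23, SE 0.19, adjusted p = 0.00213 by limma).

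**Figure D4:**
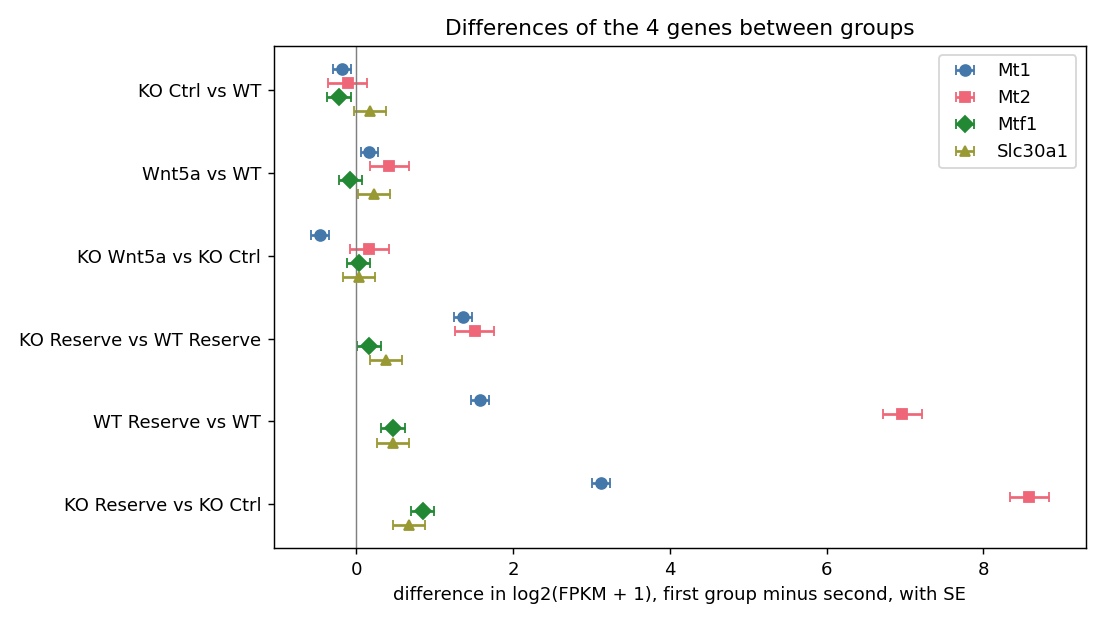
The x axis is the difference in log2(FPKM + 1) of the first group minus the second, with its standard error, for the 4 genes in the 6 comparisons on the y axis. The differences without the reserve label lie between -0.46 and 0.42, and those with it reach 3.12 for Mt1 and 8.58 for Mt2.

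KO Reserve against WT Reserve compared the genotypes within the reserve label. Mt1 was 2.59 times as high in the knockout by group means (log2 difference 1.36, SE 0.11) and Mt2 was 2.89 times as high (1.51, SE 0.25), with no overlap for either. Slc30a1 was 1.62 times as high without overlap (0.39, SE 0.20), and Mtf1 was 1.13 times as high with overlap (0.16, SE 0.15). Of the 4 genes, 2 were called in either direction, Mt1 and Mt2, where 41.3% of all genes were called, 1708 of them higher and 4191 lower, and 3 had groups that did not overlap, where 44.7% of all genes did. The median log2 difference of all genes was -0.17 here. After quantile normalization it was 0.03 and the differences were 0.98 for Mt1, 1.32 for Mt2, 0.40 for Mtf1 and 0.69 for Slc30a1.

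The other zinc, copper and metal-responsive genes were described from lists chosen by function. In the reserve knockout, 2 of 29 were called higher and 11 lower, with a median of -0.18, near that of all genes. This split depended on the scaling, since quantile normalization gave 7 higher and 7 lower and median-ratio scaling gave 8 and 7. Across all genes, the share of calls that were higher moved in the same way, to 53.3% and 53.1% of the calls, with 3154 and 3166 genes called higher. Of the ZnT exporters, 3 of 5 tested fell, Slc30a6 under neither rescaled fit. Slc30a7, a zinc transporter of the Golgi, fell from 21.9 to 8.86 FPKM (log2 difference -1.25, SE 0.22, adjusted p = 0.000284 by limma). Slc30a4, a vesicular exporter, fell from 2.00 to 0.895 FPKM (-0.66, SE 0.17, adjusted p = 0.00452 by limma).

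Of the ZIP importers, 2 of 11 fell in the reserve knockout, and of these Slc39a13 went from 6.89 to 3.74 FPKM (-0.74, SE 0.18, adjusted p = 0.00281 by limma). The copper list gave 2 higher and 2 lower of 6, with Atp7a among the lower only before rescaling. Atp7b, a copper-exporting ATPase, rose from 1.73 to 4.01 FPKM (0.87, SE 0.13, adjusted p = 5.72e-05 by limma), but was not called with a pseudocount of 0.1 (adjusted p = 0.0669). Atox1, the copper chaperone that feeds it, rose from 279 to 353 FPKM (0.34, SE 0.09, adjusted p = 0.00729 by limma), though not in a fit of the 6 reserve libraries alone (adjusted p = 0.0946). Slc31a2, a copper transporter of endosomes, fell from 5.67 to 1.78 FPKM (-1.28, SE 0.21, adjusted p = 0.000178 by limma). Of the 7 further metal-responsive genes, 4 fell, among them Srxn1 and Txnrd1 under neither rescaled fit, and Csrp1, a LIM-domain protein, went from 70.0 to 38.5 FPKM (-0.87, SE 0.12, adjusted p = 4.13e-05 by limma).

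The knockout difference within the reserve label minus that without it was 1.54 for Mt1 and 1.62 for Mt2, with 0.38 for Mtf1 and 0.20 for Slc30a1. Mt1 was below WT in every KO Ctrl library and above WT Reserve in every KO Reserve library. Of the 4 genes, 2 were called for this difference, Mt1 and Mt2, where 30.9% of all genes were called in either direction, 1147 higher and 3268 lower.

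WT Reserve against WT and KO Reserve against KO Ctrl compared the label within each genotype. Mt1 was 2.998 times as high in WT Reserve (log2 difference 1.58, SE 0.11) and 8.79 times as high in KO Reserve (3.12, SE 0.11). Mtf1 was 1.40 and 1.83 times as high (0.47 and 0.85, SE 0.15), and Slc30a1 was 2.18 and 2.46 times as high (0.46 and 0.67, SE 0.20). The Mt2 differences, 6.96 and 8.58 (SE 0.25), rest on the pseudocount of 1 and became 9.21 and 11.34 with 0.1. In the first comparison 3 of the 4 genes were called, Mt1, Mt2 and Mtf1, where 58.7% of all genes were called in either direction, and 4 had groups that did not overlap, where 64.0% did. In the second, 4 were called, where 65.3% of all genes were called, and 4 did not overlap, where 67.0% did. As in every comparison, nothing is read from the calls of the 4 genes, and Mt2 and Slc30a1 had entered the tested set mainly through the reserve libraries.

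For short genes the background was shifted. Among 1570 genes whose longest transcript is 400 to 1200 bases, the range that holds Mt1 and Mt2, the median log2 difference of WT Reserve against WT was 0.40, against 0.06 for all genes, and the 99th percentile was 5.91 against 3.96. In KO Reserve against KO Ctrl the medians were 0.49 and -0.19. The part of transcript length in the differences of Mt1 and Mt2 was not tested.

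Most other genes of zinc transport were called lower in the reserve groups. From WT to WT Reserve 6 of the 29 metal-handling genes were called higher and 17 lower, with a median of -0.67 against 0.06 for all genes. From KO Ctrl to KO Reserve 5 were higher and 19 lower, with a median of -0.77 against -0.19. Of all 14285 genes, 4400 were called higher and 3990 lower in the first comparison, and 3544 and 5778 in the second. Atp7b and Hmox1, both among the higher calls, met the filter only with the reserve libraries. Of the 11 ZIP importers tested, 8 fell and 1 rose in WT Reserve, and 9 fell and 1 rose in KO Reserve. Slc39a7, which releases zinc from the endoplasmic reticulum, fell from 84.7 to 18.3 FPKM in WT Reserve (log2 difference -2.24, SE 0.22, adjusted p = 2.2e-07 by limma). Slc39a8, a plasma membrane importer of zinc and manganese, rose from 1.33 to 5.90 FPKM (1.52, SE 0.19, adjusted p = 2.92e-06 by limma).

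The ZnT exporters other than Slc30a1 included Slc30a9, which fell from 59.2 to 21.5 FPKM in WT Reserve (-1.44, SE 0.15, adjusted p = 4.74e-07 by limma) and from 59.5 to 21.8 FPKM in KO Reserve (-1.43, SE 0.15, adjusted p = 3.6e-07 by limma). The copper gene Atp7b was at 0.067 FPKM in WT and 0.018 in KO Ctrl, against 1.73 and 4.01 in the matching reserve groups. It reached 1 FPKM in the 6 reserve libraries alone and so passed the filter only through them, and its log2 differences of 1.36 and 2.30 (SE 0.13) rest on the pseudocount, so no test is given. Ccs, the copper chaperone of superoxide dismutase, rose from 58.6 to 81.2 and from 46.6 to 86.9 FPKM (0.46 and 0.90, SE 0.11, adjusted p = 0.00158 and 1.79e-06 by limma).

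The 7 further metal-responsive genes, among them genes of the oxidative stress response, were mostly lower where Mt1 was higher. In each genotype 5 of the 7 were called lower and 1, Hmox1, higher, where 58.7% and 65.3% of all genes were called in either direction. Srxn1 fell from 122 to 4.78 FPKM in WT Reserve and from 118 to 2.81 FPKM in KO Reserve, log2 differences of -4.41 and -4.96 (SE 0.19, adjusted p = 5.43e-12 and 7.78e-13 by limma). Txnrd1, thioredoxin reductase, fell from 74.5 to 17.9 and from 80.0 to 13.5 FPKM. Gclm, a subunit of the enzyme that limits glutathione synthesis, fell from 1342 to 366 and from 1632 to 441 FPKM. Adjusted p for Txnrd1 and Gclm ranged from 7.03e-12 to 1.54e-09 by limma. Hmox1, which encodes a heme-degrading enzyme, was at 0.65 FPKM in WT, 4.92 in WT Reserve, 0.505 in KO Ctrl and 2.55 in KO Reserve. Its call in the knockout was lost without KO Ctrl replicate 1 or 2 or KO Reserve replicate 1 (adjusted p = 0.0597 to 0.08 by limma).

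**Figure D5:**
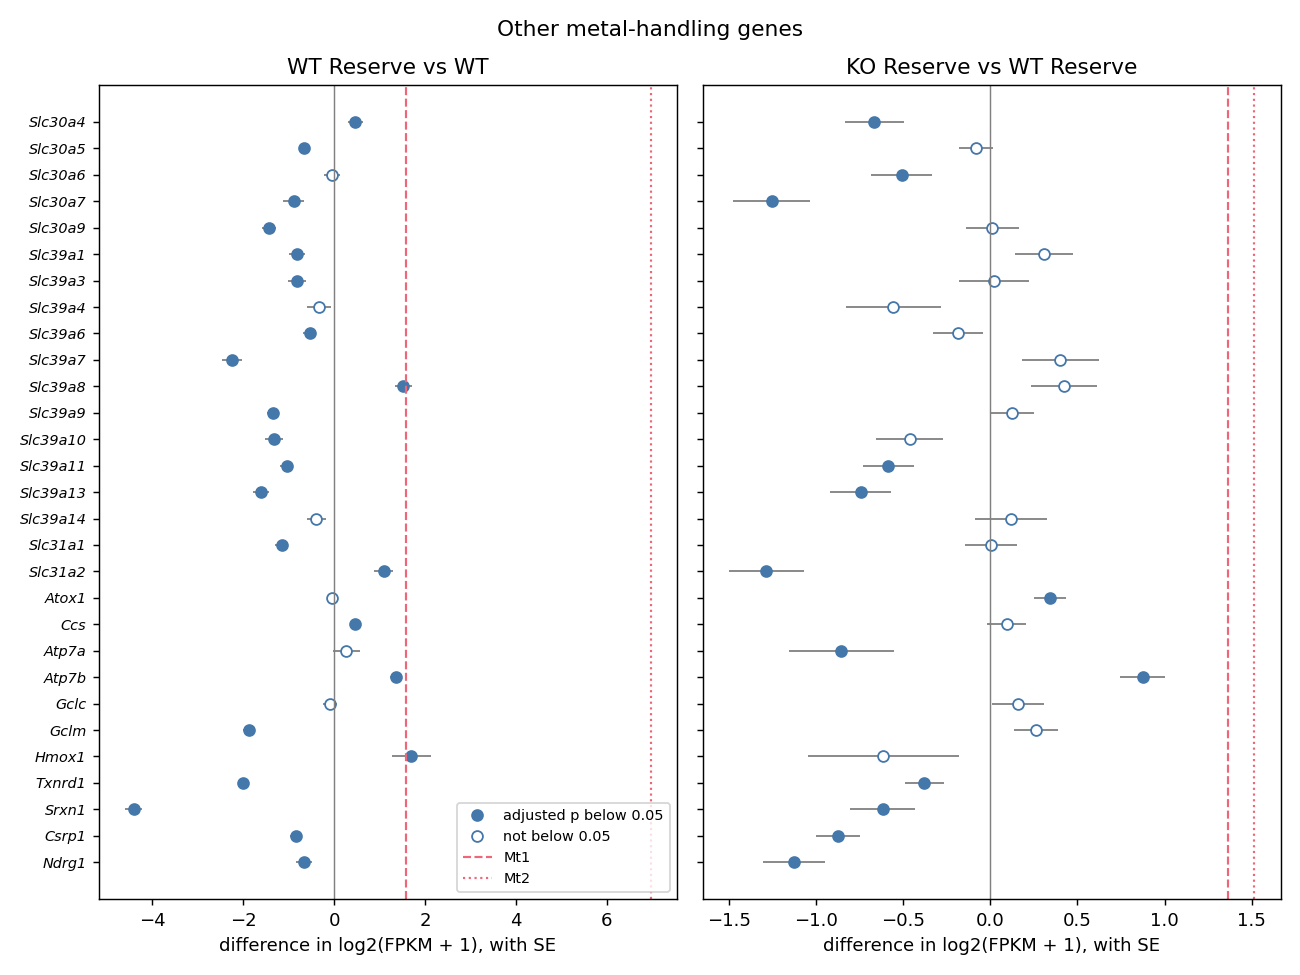
The x axes are differences in log2(FPKM + 1) with their standard errors for 29 metal-handling genes, WT Reserve minus WT on the left and KO Reserve minus WT Reserve on the right. Filled points passed an adjusted p of 0.05, and the dashed and dotted lines mark Mt1 and Mt2. On the left 17 genes are called lower and 6 higher, and on the right Mt1 at 1.36 and Mt2 at 1.51 lie beyond every listed gene.

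Of 8 glucocorticoid-induced genes, the other known class of inducers of metallothioneins, 3 rose and 2 fell in each comparison of the reserve label, a share called near the 58.7% and 65.3% of all genes. Dusp1, a phosphatase gene, rose from 3.60 to 86.4 FPKM in WT Reserve and was at 17.99 FPKM in KO Reserve. It was thus lower in KO Reserve than in WT Reserve (log2 difference -2.23, SE 0.21, adjusted p = 6.19e-07 by limma), the reverse of Mt1 and Mt2. Tsc22d3, which encodes the glucocorticoid-induced leucine zipper, went from 16.9 to 120 FPKM in WT Reserve and was at 38.6 in KO Reserve (-1.64 against WT Reserve, SE 0.16, adjusted p = 1.42e-06 by limma). Fkbp5, a chaperone of the glucocorticoid receptor, fell in both comparisons of the reserve label, from 14.5 to 6.61 and from 18.3 to 5.43 FPKM. In KO Reserve against WT Reserve, 41.3% of all genes were called in either direction. Of the 8 genes, 1 was called higher, 2 lower and 5 in neither direction. The higher one, Per1, went from 0.741 to 1.56 FPKM (0.54, SE 0.16, adjusted p = 0.0122 by limma), the direction of Mt1 and Mt2. Its call was lost in a limma fit of the reserve libraries alone (adjusted p = 0.0869). The part of glucocorticoids in the levels of Mt1 and Mt2 was not tested.

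Genes with a profile like that of Mt2 were sought by level. Thresholds set after its values were seen, at least 100 FPKM in all 6 reserve libraries and under 2 FPKM in the 12 others, left 11 genes, of 1215 that met the first condition. They were Camp and Ngp, which encode neutrophil granule proteins, Car1, Cldn13, Klf1 and Rhd, known from red cell precursors, Dntt, the terminal transferase of lymphoid progenitors, Mir144, Gm23246, Gm43809 and Mt2 itself. The first threshold left out Tspo2 and Ermap, at means of 90.95 and 86.4 FPKM in WT Reserve. Their group means without the label were at most 0.0953 FPKM. The summed granulocyte, erythroid and B lymphoid markers given above were higher in all 6 reserve libraries than in the other 12. Without the label the 5 T and NK markers summed to 20.6 to 71.0 FPKM, against 121 to 146 (KO Reserve) and 260 to 334 (WT Reserve). Most of this sum was Nkg7, whose group means were 23.9 to 57.9 FPKM without the label, 130 (KO Reserve) and 297 (WT Reserve). Cd3e, Cd4 and Cd8a failed the expression filter, at no more than 0.373 FPKM in any library. The 6 monocyte and macrophage markers summed to 394 to 634 FPKM in WT Reserve but to 89.3 to 133 in KO Reserve. Without the label they summed to 103 to 152 FPKM. Nearly all of this sum was Lyz2, whose group means were 103 to 139 FPKM without the label, 110 (KO Reserve) and 493 (WT Reserve). Csf1r and Adgre1 failed the filter, at no more than 0.892 FPKM in any library. The 4 that passed it were called lower in KO Reserve than in WT Reserve by limma, where 41.3% of all genes were called. The part of all these cell types in the levels of Mt1 and Mt2 was not tested.

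The genes most like each of the 4 were found by Pearson correlation of log2(FPKM + 1) over all 18 libraries. The contrast between the 6 reserve libraries and the 12 others weighs on all of them, and the libraries differ in depth, so the coefficients are a description. For Mt1 they were Rfesd (r = 0.989), Emc9 (0.986), Blvrb (0.985), Rec114 (0.981) and Glrx5 (0.980). Blvrb, biliverdin reductase B, was at 163 FPKM in WT, 715 for WT Reserve and 1483 for KO Reserve, and it was also lowest in KO Wnt5a at 75.2. For Mt2 they were Asb17os, Tspo2, Col5a1, Ermap and Cldn13, with r from 0.995 to 0.996. For Mtf1 the closest was Ccs (0.920) and for Slc30a1 it was Ndufaf3 (0.855).

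Within the 12 libraries without the reserve label the neighbours of Mt1 were others, led by Tpm1 (r = 0.955), Alox12 (0.944), Sla (0.941), Npy (0.939) and Stx11 (0.936). Npy was at 193 FPKM in WT, 180 in Wnt5a, 71.8 in KO Ctrl and 2.05 in KO Wnt5a, the same order of KO Wnt5a below KO Ctrl below WT as Mt1. Mt1 and Mt2 correlated at 0.959 over all 18 libraries and at 0.415 over the 12, where Mt2 is close to its detection limit.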

How the data were processed

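Per the labels, cDNA of the sorted cells came from the SMARTer low-input chemistry and was turned into Nextera libraries, which keep no strand. CASAVA 1.8.2, TopHat2 2.0.10, Cufflinks and the mm10 build are listed in the submitters' processing notes. The authors deposited 1 table of 44349 genes with 1 FPKM column per library. Its header names no unit, and FPKM was checked on the values. All 18 columns were used.

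GENCODE M21 matched 43938 identifiers. Genes with missing values (16 genes, 33 cells) were left out. A gene was kept where 3 or more libraries reached 1 FPKM, which left 14285 genes, analysed as log2(FPKM + 1) in limma 3.58.1 (R 4.3.3, trend and robust moderation), 1 mean per group over all 18 libraries, with Benjamini-Hochberg adjustment over all genes tested and a threshold of 0.05. On simulated data for KO Ctrl against WT (14285 genes, 200 of them changed), the fit called 83% of 2-fold and 97% of 4-fold changes, with 9 false calls. The changed genes were drawn only from those with a mean log2(FPKM + 1) above 2 in WT. Mt2 and Slc30a1 were below that level there, so these rates do not cover genes as low as them. Depth was inferred from the smallest frequent values, where 1 fragment on 1 kb is worth 0.0264 to 0.0534 FPKM. The gene mt-Ts1 took 32.0% to 71.3% of the FPKM sum of a library.

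The 4 genes and all lists were chosen with earlier results of these data known. A neighbour of the metallothionein genes is not reported here. Of each list, up to 4 genes with the smallest p in a comparison were eligible to be named, and for likeness the 5 with the highest r. Alternatives were median-ratio scaling or quantile normalization, a smaller pseudocount (0.1), dropping the filter or setting it at a mean of 5 FPKM, plain limma moderation, a replicate block, fits of the compared libraries alone, and leaving out each library. Summaries used Python 3.11.15, numpy 2.4.6, pandas 2.3.3 and matplotlib 3.10.9.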

Additional observations from a re-analysis of the deposited data

Results flagged for a closer look

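The knockout difference within the reserve label was compared with that without it for Mt1, Mt2 and the other metal-handling genes. Of 29 other metal-handling genes tested, 11 were called for this interaction, where 30.9% of all genes were called, so such calls were common throughout. Mt1 was below WT in every KO Ctrl library and above WT Reserve in every KO Reserve library, a difference of log2 differences of 1.54. The same value was 1.62 for Mt2, whose libraries overlapped between KO Ctrl and WT near the detection limit. For both genes the difference is given as a description with no p-value, since they were chosen with these values known, and it was not tested independently.

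For the other genes the interaction was tested with limma and Benjamini-Hochberg adjustment over all genes. It was positive for Atp7b (0.94), Atox1 (0.60, adjusted p = 0.00264) and Ccs (0.43, adjusted p = 0.043). It was negative for Slc31a2 (-1.42, adjusted p = 0.00212), Ndrg1 (-1.28, adjusted p = 0.00112), Csrp1 (-0.91, adjusted p = 0.00103), Slc30a4 (-0.94, adjusted p = 0.00643) and Slc39a13 (-0.95, adjusted p = 0.00825). Slc30a7 (-1.11, adjusted p = 0.0128), Slc39a11 (-0.76, adjusted p = 0.0104) and Txnrd1 (-0.48, adjusted p = 0.0292) were also negative. The interactions of Slc30a7, Slc39a11, Slc39a13 and Txnrd1 were called under neither quantile normalization nor median-ratio scaling, which gave 5 genes higher and 4 lower in place of 3 and 8. Ccs lost its call without KO Ctrl replicate 1, KO Reserve replicate 2 or 3, any 1 WT Reserve library, or WT replicate 2 or 3 (adjusted p = 0.0529 to 0.102). Txnrd1 lost it without the same libraries other than WT Reserve replicate 2 (adjusted p = 0.0562 to 0.0747). Atp7b was close to 0 in WT and KO Ctrl and passed the filter only through the reserve libraries, so its call carries no weight. It was not called with a pseudocount of 0.1 (adjusted p = 0.0844).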

How the results depend on the processing

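The deposited values carry no counts, the labels do not say that replicates are separate animals, and Mt2 and Slc30a1 lie near the detection limit without the reserve label. Of 248 values of the 4 genes under alternative settings, 212 stayed within 1 SD, 36 moved by more and 0 called values reversed. Of 240 with 1 library left out, 239 stayed. Over both kinds, 13 of 488 values changed sign. Without the expression filter, called genes fell to 15 (KO Ctrl against WT, main 378), 9 (KO Wnt5a against KO Ctrl, 146), 616 (KO Reserve against WT Reserve, 5899), 3127 (WT Reserve against WT, 8390), 4259 (KO Reserve against KO Ctrl, 9322), 3 (Wnt5a interaction, 10) and 99 (reserve interaction, 4415), where 44333 genes are tested. Metal-handling calls then fell to 0, 1 and 12 for KO Wnt5a against KO Ctrl, KO Reserve against WT Reserve and WT Reserve against WT, from 1, 13 and 23, and to 0 from 11 for the reserve interaction. Wnt5a against WT went from 7 calls to 4 with quantile normalization, 3 with median-ratio scaling, 4 with a mean of at least 5 FPKM and 4 with plain limma. KO Wnt5a against KO Ctrl gave 67 with a mean of at least 5 FPKM and 72 from its own libraries alone, and the Wnt5a interaction gave 1 with the former. KO Reserve against WT Reserve gave 3720, and 8 metal-handling genes, from its own libraries alone. The cause was not tested.

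Leaving out 1 library gave 132 to 461 calls for KO Ctrl against WT (metal-handling 0 to 1), 3 to 16 for Wnt5a against WT, 65 to 156 for KO Wnt5a against KO Ctrl, 4649 to 5998 for KO Reserve against WT Reserve (11 to 15), 7563 to 8040 for WT Reserve against WT (22 to 23), 8676 to 9101 for KO Reserve against KO Ctrl (21 to 24), 7 to 22 for the Wnt5a interaction and 3616 to 4922 for the reserve interaction (9 to 12). Counts moved by over 1.5 times in KO Ctrl against WT without WT replicate 1 (197), 2 (223) or 3 (132) or KO Ctrl replicate 2 (166) or 3 (230), and in Wnt5a against WT without any 1 library (3 or 4 calls, but 16 without Wnt5a replicate 3). They did so in KO Wnt5a against KO Ctrl without KO Ctrl replicate 1 (69) or KO Wnt5a replicate 2 (81) or 3 (65), and for the Wnt5a interaction without Wnt5a replicate 2 (22) or KO Ctrl replicate 3 (18). Scaling moved the share of calls that were higher from 57.7% to 49.7% (quantile) and 37.5% (median-ratio) in KO Ctrl against WT, from 38.0% to 49.1% and 52.1% in KO Reserve against KO Ctrl, and from 26.0% to 52.3% and 54.9% for the reserve interaction. Same-numbered libraries did not deviate together in the 6 comparisons (r -0.08 to 0.08 over 18 pairs, 0 above 0.1). Wnt5a and KO Wnt5a were not set against each other in this way. Such correlations over all genes cannot tell whether equal numbers share an animal or a day. With the replicate block, calls were 394, 8, 137, 5847, 8375 and 9287 in the 6 comparisons, 13 and 4389 for the interactions, within 1.5 times of the values without it.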
